A study of Homo sapiens with 24 samples.

Results

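Box C/D small nucleolar RNAs (SNORDs) were examined in P493 cells. P493 is a human B cell line in which tetracycline (TET) turns off a MYC transgene. Some of the cells had received MST-312, a small molecule that inhibits telomerase. Members were all detected probes whose annotated symbol starts with SNORD and a digit. Of 178 such probes on the Illumina array, all but 77 qualified, each for a different symbol, among 17882 detected probes of 47322 in all. A probe counted as detected when 1 group or more had detection p-values below 0.05 on each of its 3 arrays. The rule therefore used the measured signal, and a probe that qualified through MST-312 groups alone had to be brighter there.

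There were 8 groups of 3 arrays. The 4 MST-312 groups were held for 48 h with MST-312 and TET and were then released into TET-free medium that still held MST-312, for 0, 4, 8 or 24 h. The 4 untreated groups carry the same release times and received no MST-312. The sources used here do not say when untreated cells had TET, and the effects of MST-312 and of any difference in that schedule cannot be told apart. All groups are of 1 cell line, and the labels do not say that replicates were separate cultures, so p-values measure the spread between these samples, which may be technical.

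Box C/D snoRNAs are short nucleolar RNAs that pair with other RNAs and direct ribose methylation of the paired base, carried out by fibrillarin within a protein particle. Most guide 18S or 28S ribosomal RNA or U6 spliceosomal RNA, while a few, among them U3, U14, U13 and U22, take part in cutting the ribosomal precursor. In human cells most lie in introns of host genes, many of which encode ribosomal proteins or spliced noncoding RNAs, and are trimmed out of the intron. U3 and U13 have their own promoters. Ribosome production is a well known part of the MYC programme.

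Members that share a host gene are made from 1 transcript. The host starts are therefore shown for 7 hosts that each carry at least 3 members, as 40 bases before RefSeq's annotated start in lower case and the first 20 transcribed bases in capitals (RefSeq, GRCh38.p14). They lie at chr11:62855866-62855925 (minus strand) for SNHG1, chr19:49487568-49487627 (plus) for RPL13A, chr22:39319604-39319663 (minus) for RPL3, chr9:133348178-133348237 (plus) for RPL7A, chr20:49278602-49278661 (plus) for ZFAS1, chr1:173869026-173869085 (minus) for GAS5 and chr20:2652592-2652651 (plus) for NOP56.
SNHG1: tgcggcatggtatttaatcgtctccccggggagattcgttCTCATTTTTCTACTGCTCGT
RPL13A: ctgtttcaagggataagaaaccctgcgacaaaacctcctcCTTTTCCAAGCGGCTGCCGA
RPL3: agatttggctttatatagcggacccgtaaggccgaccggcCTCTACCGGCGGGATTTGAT
RPL7A: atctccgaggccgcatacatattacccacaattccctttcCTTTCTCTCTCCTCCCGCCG
ZFAS1: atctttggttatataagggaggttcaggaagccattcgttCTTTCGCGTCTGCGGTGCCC
GAS5: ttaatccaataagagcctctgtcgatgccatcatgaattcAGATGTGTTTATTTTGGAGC
NOP56: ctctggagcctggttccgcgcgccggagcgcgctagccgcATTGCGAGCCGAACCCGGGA

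The letters CTTT, on the transcribed strand and within the first 8 transcribed bases, stood in 19 of the 46 host genes with a listed start (41.3%), against 4.7% of 27305 genes. This pyrimidine run is the usual opening of ribosomal protein transcripts. The letters CACGTG, which read the same on both strands and are the E-box that MYC can bind, stood in 6 of the 46 windows of 300 bases (13%), against 8.77% of all genes. A match describes the letters only. The arrays measured no binding.

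Detection itself split by treatment. On all 3 arrays, 91, 86 and 91 of the qualifying probes were detected in the MST-312 groups at 0, 4 and 8 h and every one at 24 h. The untreated groups had 56, 53, 60 and 65 at 0, 4, 8 and 24 h. There were 51 probes detected in all 8 groups, and on all 24 arrays. Another 34 were detected in MST-312 groups only and 0 in untreated groups only. The numbers of all probes detected per group were close, from 13923 to 14247 in the MST-312 groups, against 14381 to 14679 in the untreated groups. Just inside the rule were SNORD1B, SNORD37, SNORD58A, SNORD60, SNORD8 and SNORD93, each detected throughout in MST-312 cells at 24 h only, at mean raw intensities of 187 to 247 there. Just outside were SNORD125, SNORD18B and SNORD56B, at 159 to 179 in their brightest group.

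The 77 probes that did not qualify included all 38 of the imprinted clusters on the array, among them 15 of SNORD114, 9 of SNORD113, 5 of SNORD116 and 2 of SNORD115. These families are made from imprinted loci and are known mainly from brain. By role, 9 of 9 probes for processing snoRNAs qualified, with 5 of 6 for U6 guides, 20 of 31 for 18S guides, 36 of 50 for 28S guides and 31 of 44 for the others, whose guide role was not listed here.

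SNORD signal was higher in MST-312 cells at every time after release. The median over the 51 probes detected throughout was 8.77, 8.90 and 8.88 on the log2 intensity scale on the 3 MST-312 arrays at 0 h, against 7.19, 7.22 and 7.17 on the untreated arrays. At 24 h it was 9.52, 9.54 and 9.44 on MST-312 arrays and 7.51, 7.49 and 7.42 on untreated arrays. No MST-312 array overlapped an untreated array in this median at any time, the lowest MST-312 value being 8.66 (at 4 h) and the highest untreated value 7.51 (at 24 h).

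**Figure D1:**
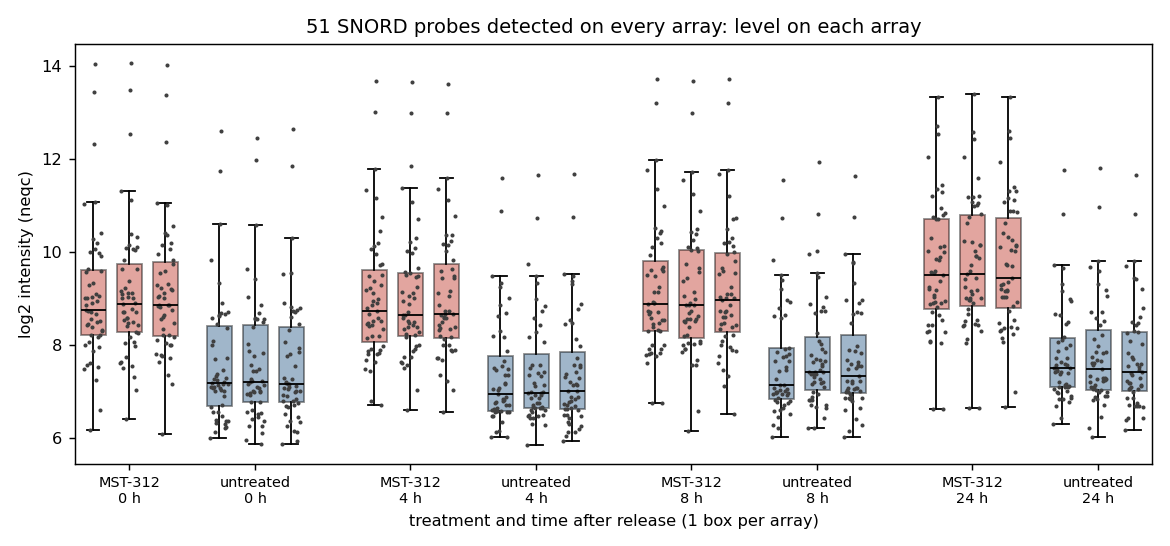
Log2 intensity (vertical axis, after background correction and quantile normalization) of the 51 SNORD probes detected on every array, with 1 box per array (median, quartiles, whiskers to the farthest point within 1.5 times the box) and 1 dot per probe. MST-312 arrays are red and untreated arrays blue, by hours after release. Array medians lie between 8.66 and 9.54 in MST-312 cells and between 6.95 and 7.51 in untreated cells.

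Among these 51 probes, 50, 49, 45 and 49 were higher in MST-312 cells at 0, 4, 8 and 24 h and 0 were lower at any of the 4 times (limma, adjusted p below 0.05 over all probes tested). Of the 11396 probes of any gene detected in all 8 groups, 30.8%, 29%, 27% and 30.7% were higher and 27.8%, 29.2%, 28.7% and 30.1% lower. The median change of the 51 was 1.45, 1.58, 1.46 and 1.85 on the log2 scale, against 0.06, 0.03, 0.03 and 0.02 over those 11396 probes. Over all qualifying members, 93, 94, 91 and 97 were higher and 0 lower, where 26%, 24.9%, 23.6% and 26.4% of all tested probes were higher and 25.9%, 27.2%, 26.7% and 27.6% lower. The 3 MST-312 arrays all lay above the 3 untreated arrays for 96, 93, 91 and 97 members, as they did for 29.8%, 27.9%, 26.2% and 28.9% of all tested probes. These counts over all members are partly fixed by the detection rule and are given as a description.

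The size of these changes depends on how background is treated. The median over all members was 1.32, 1.31, 1.38 and 1.90 here, but 0.74, 0.71, 0.72 and 1.17 without background correction, while 94, 94, 90 and 97 were then called higher. The labelling kit primes from poly(A) tails, which mature box C/D snoRNAs lack, so mature snoRNA, its precursors and host introns cannot be told apart in this signal. In such bulk samples, a change in the share of cells and a change in RNA per cell cannot be told apart either.

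**Figure D2:**
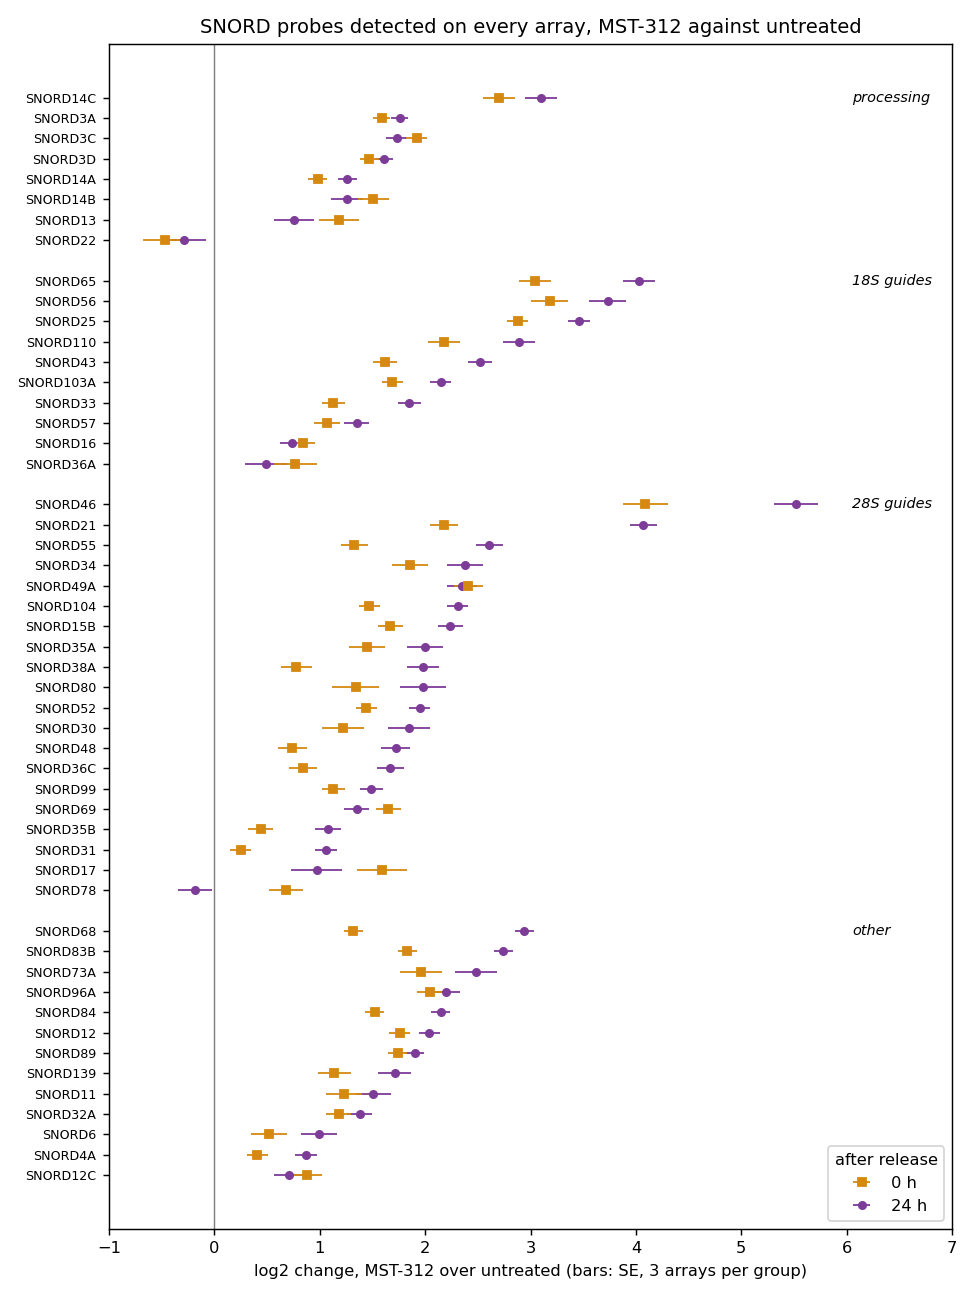
Log2 change, MST-312 over untreated (horizontal axis), for the 51 SNORD probes detected on every array, at 0 h (orange squares) and 24 h (purple circles) after release, grouped by role and ordered by the change at 24 h; bars are standard errors from the limma model, with 3 arrays per group. SNORD46 lies farthest right, at 4.09 and 5.52, and SNORD22 is left of 0 at both times, at -0.47 and -0.29.

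Among the processing snoRNAs all but SNORD14D and SNORD22 were higher at all 4 times, and both of these had signals near background. U3 is the most abundant processing snoRNA and is needed for the first cuts of the 18S precursor. Its copies SNORD3A, SNORD3C and SNORD3D lie on chromosome 17 and are nearly identical, so their probes may read each other's RNA and are counted here with that reserve. SNORD3A had 13.45, 13.50 and 13.39 in MST-312 cells at 0 h, against 11.74, 11.98 and 11.85 in untreated cells, which is a log2 change of 1.59 ± 0.08 (SE, limma adjusted p = 3.76e-12). Later changes were 2.22 ± 0.08 (4 h), 2.35 ± 0.08 (8 h) and 1.76 ± 0.08 (24 h). SNORD3C and SNORD3D were also higher at all 4 times, by 1.73 to 2.42 and by 1.47 to 2.01.

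U14, the product of the SNORD14 genes, pairs with 18S rRNA and is needed for making it. SNORD14C, in an intron of HSPA8, had 9.65, 9.84 and 9.55 in MST-312 cells at 0 h, against 7.28, 6.97 and 6.70 in untreated cells. Its log2 change was 2.70 ± 0.15 at 0 h and 3.10 ± 0.15 at 24 h (SE, limma adjusted p = 5.40e-12 and 5.60e-13). SNORD14A and SNORD14B, both in introns of RPS13, were higher by 0.98 and 1.51 at 0 h and by 1.26 each at 24 h. SNORD14D, from the same host as SNORD14C, passed at none of the 4 times, with changes of -0.07, 0.28, -0.15 and -0.10, and was detected in 3 of the 8 groups. Its mean raw intensity was 142 to 204 over the groups, near background. The copies of U14 are related in sequence, so some sharing of signal between their probes is possible and was not tested.

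SNORD13 (U13), which is on chromosome 8 and has no host gene, was higher by 1.18 ± 0.19, 1.10 ± 0.19, 1.22 ± 0.19 and 0.76 ± 0.19 at 0, 4, 8 and 24 h (SE, limma adjusted p = 2.39e-05, 5.56e-05, 1.89e-05 and 0.00201). SNORD22 (U22), which is needed for making 18S rRNA, passed at no time with the normalization used here. Its mean raw intensity was 167 to 241 over the groups, near background, so the size of its changes depends on background. It had 6.19, 6.42 and 6.10 in MST-312 cells at 0 h, against 6.34, 6.61 and 7.17 in untreated cells, and the arrays overlapped. Its change was -0.47 ± 0.21 (adjusted p = 0.0693), then 0.03, 0.17 and -0.29 at 4, 8 and 24 h (adjusted p = 0.917, 0.523 and 0.262). At 24 h its 3 MST-312 arrays, at 6.64, 6.65 and 6.68, lay below the untreated arrays, at 6.84, 6.90 and 7.10. Its value at 0 h passed with median scaling (-0.54, adjusted p = 0.0305) and without untreated replicate 1 at 0 h (-0.65, adjusted p = 0.0212).

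Guides to 18S rRNA were higher as a group. Of the 10 detected throughout, 10, 10, 9 and 10 were higher at 0, 4, 8 and 24 h and 0 lower, with medians of 1.65, 2.03, 2.00 and 2.34. SNORD65, in the noncoding host SNHG29, had 9.06, 8.92 and 9.21 in MST-312 cells at 0 h, against 6.23, 5.88 and 5.95 in untreated cells. At 24 h it had 11.30, 11.07 and 11.13 in MST-312 cells, against 7.40, 6.71 and 7.30 in untreated cells. The groups were far apart at both times, and the log2 change was 3.04 ± 0.15 and then 4.03 ± 0.15 (SE, limma adjusted p = 2.26e-12 and 3.61e-14). The mean raw intensity of SNORD65 in untreated cells at 0 h, 159, was near background, so the size of the 0 h change depends on background. SNORD56, in NOP56, had 10.21, 10.08 and 10.07 in MST-312 cells at 0 h, against 7.02, 6.78 and 7.02 in untreated cells. It was higher by 3.18 ± 0.18 at 0 h and by 3.73 ± 0.18 at 24 h. SNORD25, in SNHG1, had 10.01, 10.09 and 10.16 in MST-312 cells at 0 h, against 7.35, 7.23 and 7.06 in untreated cells, and was higher by 2.88 ± 0.10 and 3.46 ± 0.10. SNORD43, in RPL3, was higher by 1.62, 2.52, 2.34 and 2.52 (SE 0.11 each). SNORD36A, in RPL7A, was at the low end, with 0.77, 0.56, 0.31 and 0.49, and did not pass at 8 h.

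Of the 20 guides to 28S rRNA detected throughout, 20, 19, 18 and 19 were higher and 0 lower, with medians of 1.39, 1.49, 1.40 and 1.96. SNORD46, on chromosome 1, had the largest change of all members at each time. It had 11.09, 11.12 and 11.01 in MST-312 cells at 0 h, against 7.04, 7.11 and 6.81 in untreated cells. At 24 h it had 12.55, 12.44 and 12.46 in MST-312 cells, against 7.16, 7.04 and 6.69 in untreated cells. The changes were 4.09, 4.80, 4.36 and 5.52 (SE 0.21 each, limma adjusted p at most 2.23e-12).

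SNORD21, in RPL5, guides 28S rRNA as well and stood closer to the other guides at 0 h. It had 9.30, 9.23 and 9.23 in MST-312 cells at 0 h, against 7.03, 7.28 and 6.91 in untreated cells, and 11.22, 11.19 and 11.08 against 6.98, 7.10 and 7.20 at 24 h. The change was 2.18 ± 0.13 at 0 h and 4.07 ± 0.13 at 24 h (SE, limma adjusted p = 3.54e-11 and 5.34e-15). SNORD95, in RACK1, was higher by 2.78, 2.70, 3.00 and 3.55. SNORD78, in GAS5, was higher by 0.68 ± 0.16 and 0.69 ± 0.16 at 0 and 4 h, but had 0.01 and -0.18 at 8 and 24 h, where it did not pass. Its mean raw intensity was 173 to 242 over the groups, near background. SNORD31, in SNHG1, had changes of 0.25, 0.14, 0.18 and 1.06, of which those at 0 and 24 h passed.

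Guides to U6, the snRNA at the catalytic centre of the spliceosome, were mostly near background in untreated cells. SNORD7 was not detected on any untreated array at 0, 4, 8 or 24 h, and was at least 2.14-fold, 2.11-fold, 1.47-fold and 2.33-fold higher in MST-312 cells. It entered the set through the MST-312 groups, as SNORD53 and SNORD71 did, so its values are given without a test. Its measured means at 0 h were 6.95 in MST-312 cells and 5.46 in untreated cells. Such a bound sets the MST-312 mean against the lowest detected signal of the untreated arrays, or the probe's own signal where that is higher. At 0 h SNORD94 was at least 1.94-fold higher (means of 6.82 in MST-312 cells and 5.57 in untreated cells) and SNORD67 at least 1.60-fold (6.53 and 5.45). SNORD8 was at least 1.73-fold higher at 24 h (6.65 in MST-312 cells and 5.47 in untreated cells). SNORD10, in EIF4A1, differed from these at 0 h, with 7.26, 7.45 and 7.49 in MST-312 cells and 7.35, 7.56 and 7.44 in untreated cells. Its change there was -0.06 ± 0.13 (adjusted p = 0.744), and at 4, 8 and 24 h it was 1.02, 0.67 and 1.23, all of which passed.

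Among the other members, SNORD53 (in WDR43) and SNORD71 (in AP1G1) were not detected on any untreated array at 0 or 24 h. SNORD53 had 8.44, 8.64 and 8.41 in MST-312 cells at 0 h and 9.64, 9.69 and 9.59 at 24 h, which is at least 6.23-fold and 13.7-fold higher than in untreated cells. Its measured means were 8.50 and 9.64 in MST-312 cells, against 5.41 and 5.42 in untreated cells. SNORD71 was at least 5.19-fold and 12.4-fold higher, with means of 8.23 and 9.49 in MST-312 cells, against 5.44 and 5.69 in untreated cells. SNORD68, in RPL13, was detected on every array and was higher by 1.32, 1.64, 1.66 and 2.94 (SE 0.09 each). SNORD1A, in SNHG16, was an exception, with 0.44, 0.44, 0.31 and 0.31, and passed at no time. Counted over all members, 26, 18, 16 and 23 had only such a bound at 0, 4, 8 and 24 h, and setting these at their bound moved the median change to 1.22, 1.26, 1.12 and 1.73.

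Probes of snoRNAs that share a host differed in some hosts by more than in others, and no difference between probes was tested. At 24 h the changes spanned 3.75 on the log2 scale in SNHG1 and 3.56 in GAS5, but 1.00 in RPL13A and 0.85 in RPL23A. The low ends in SNHG1 and GAS5 were SNORD22 and SNORD78. Their mean raw intensities in MST-312 cells at 24 h, 208 and 216, were near background, so both spans depend on background. SNHG1, a noncoding RNA whose introns are packed with snoRNAs, was itself higher by 1.74 ± 0.12, 1.98 ± 0.12, 1.71 ± 0.12 and 2.09 ± 0.12 at 0, 4, 8 and 24 h (SE, limma adjusted p at most 1.91e-10). Its members lay on both sides of it. SNORD22 was at -0.47, 0.03, 0.17 and -0.29, and SNORD25 at 2.88, 3.52, 3.14 and 3.46. SNORD31, SNORD27 and SNORD30 lay between these. The only detected probe of GAS5, another noncoding host, had changes of 0.47, 0.41, 0.28 and 0.75, of which all but that at 8 h passed. This probe was detected in 5 of the 8 groups. Its means at 0 h, 5.67 in untreated cells and 6.14 in MST-312 cells, were near background. The size of the host's changes therefore depends on background. At 24 h the members in GAS5 were SNORD78 at -0.18, SNORD80 at 1.98, SNORD76 at 2.99 and SNORD74 at 3.38.

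In the protein-coding hosts NOP56, RPL3 and RPL23A the host's own probes had changes below 0 at 24 h while their snoRNA probes were above 0. NOP56 encodes a core protein of the box C/D particle and carries SNORD56, SNORD57 and SNORD110, which were higher by 1.07 to 3.18 at 0 h and by 1.35 to 3.73 at 24 h. The 3 NOP56 probes gave -0.54, -0.38 and -0.47 at 0 h and, in the same order, -0.40, -0.33 and -0.25 at 24 h, and of these only the last probe passed, at both times. RPL3, a large-subunit ribosomal protein, had 2 probes at -0.52 and -0.33 at 0 h and at -1.37 and -0.29 at 24 h, all of which passed, whereas its 4 members had changes of 1.14 to 1.83 and of 1.59 to 2.74, with SNORD83A at 0 h undetected in untreated cells. RPL23A was at -0.88 ± 0.08 at 24 h (adjusted p = 2.81e-08) and its 3 members were higher by 0.87 to 1.72.

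**Figure D3:**
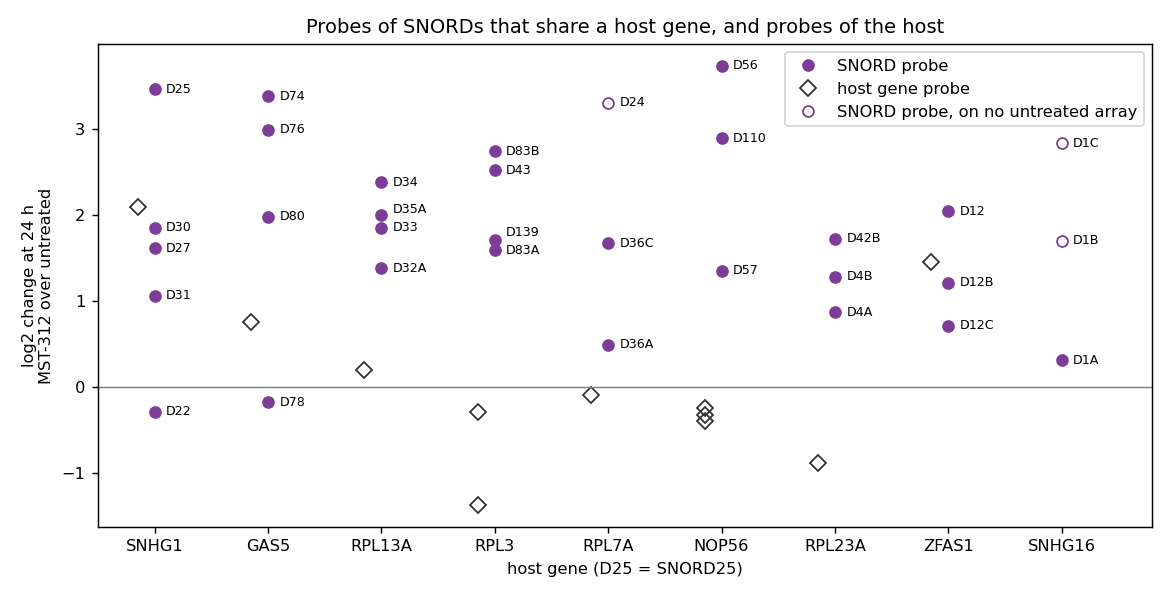
Log2 change at 24 h, MST-312 over untreated (vertical axis), for SNORD probes (purple circles) of 9 host genes with at least 3 members, beside the probes of the host gene (open diamonds; none detected for SNHG16). Open circles mark SNORD24, SNORD1B and SNORD1C, which were detected on no untreated array at 24 h, so their fitted values depend on background. SNORD22 and SNORD78 lie below 0 in hosts whose other members reach 3.46 and 3.38, and both RPL3 probes, all 3 NOP56 probes and the RPL23A probe lie below 0.

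Over all 56 host genes of the members, 43 had a detected probe. For the 74 members in these hosts, the SNORD probe's change exceeded that of its host's brightest probe in 64, 65, 64 and 65 cases at 0, 4, 8 and 24 h. The median difference was 0.96, 1.06, 1.14 and 1.73. These members include probes that qualified through MST-312 groups only, so the tally is a description. Among the 37 detected throughout, the SNORD change was the greater in 30, 31, 29 and 30 cases, with a median difference of 0.87, 0.93, 0.83 and 1.23. Probes of 1 host could disagree, so both tallies depend on the host probe chosen. At 24 h the brightest RPL17 probe had -0.05 and a dimmer one 0.61, while the brightest RPL3 probe had -0.29 and the dimmer one -1.37. Of 71 host probes, 29, 28, 20 and 24 were higher (40.8%, 39.4%, 28.2% and 33.8%) and 10, 13, 16 and 16 lower. Of all tested probes, 26%, 24.9%, 23.6% and 26.4% were higher and 25.9%, 27.2%, 26.7% and 27.6% lower. At each time a smaller share of host probes than of all tested probes was lower. The 7 probes of noncoding hosts gave 6, 6, 5 and 6 higher and 0 lower, with a median of 1.27 at 24 h. The 61 probes of protein-coding hosts gave 20, 20, 14 and 17 higher and 10, 13, 14 and 14 lower, with a median of 0.06 at 24 h. Their shares of higher probes, 23% at 8 h and 27.9% at 24 h, lay near those of all tested probes. The SNORD probes detected throughout did not show that contrast in the counts: those in noncoding hosts numbered 14, of which 12 were higher at 24 h with a median of 1.90, and those in protein-coding hosts numbered 33, of which 33 were higher with a median of 1.98.

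Release was then compared with 0 h within each treatment. In MST-312 cells, of the 51 probes detected throughout, 5, 7 and 37 were higher at 4, 8 and 24 h and 10, 9 and 6 lower, where 19%, 19.8% and 26.3% of the 11396 probes of any gene were higher and 17%, 20.7% and 25.8% lower. In untreated cells 3, 17 and 17 of the 51 were higher and 20, 8 and 11 lower, where 23.4%, 27.1% and 32.3% of the 11396 were higher and 20.2%, 24.6% and 29.8% lower. The median change at 24 h was 0.63 in MST-312 cells and 0.12 in untreated cells. Over all members, 6, 16 and 80 were higher and 10, 10 and 6 lower in MST-312 cells (14.9%, 15.9% and 21.5% of all tested probes were higher and 14.2%, 17.1% and 21.7% lower). In untreated cells 4, 21 and 27 were higher and 21, 9 and 12 lower (18.8%, 21.8% and 26.6% higher and 17.4%, 21.1% and 25.6% lower). These counts over all members are a description, because 34 members entered through MST-312 groups only and 6 of them, named above, through 24 h alone.

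The roles gave unlike counts, with no test of the difference. Of the 11396 probes of any gene detected throughout, 26.3% were higher and 25.8% lower at 24 h in MST-312 cells, and 32.3% and 29.8% in untreated cells. At 24 h all 10 guides to 18S rRNA detected throughout were higher than at 0 h in MST-312 cells, where 5 were higher and 1 lower in untreated cells. Of 20 guides to 28S rRNA, 16 were higher and 0 lower in MST-312 cells, and 7 were higher and 3 lower in untreated cells, where the higher share was near that of all probes. Of 8 processing snoRNAs, 1 was higher and 5 lower in MST-312 cells, and 1 was higher and 4 lower in untreated cells. The one of these 8 that rose in both was SNORD14C, by 0.78 ± 0.15 in MST-312 cells and 0.38 ± 0.15 in untreated cells. SNORD14D, the processing snoRNA not detected throughout, had 0.61 ± 0.17 (SE) in MST-312 cells and 0.64 ± 0.17 in untreated cells. Its means at 0 h, 5.82 in MST-312 cells and 5.90 in untreated cells, were near background. Both sizes therefore depend on background and are given without a test.

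The counts at 4 and 8 h rest in part on single arrays and on the scaling. With median scaling 1 and 9 members were higher in MST-312 cells at 4 and 8 h, and 7 in untreated cells at 4 h. Without MST-312 replicate 1 at 0 h, 3 and 10 members were higher at 4 and 8 h, and without MST-312 replicate 3 at 8 h, 10 were higher at 8 h.

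SNORD80, a 28S guide in GAS5, had 8.53, 8.71 and 9.19 at 0 h and 10.81, 11.21 and 11.31 at 24 h in MST-312 cells, and 7.31, 7.24 and 7.86 at 0 h and 8.99, 9.20 and 9.21 at 24 h in untreated cells. It had the largest rise by 24 h among all members in both treatments, by 2.30 ± 0.22 in MST-312 cells and by 1.67 ± 0.22 in untreated cells (SE, limma adjusted p = 5.69e-08 and 2.63e-06). SNORD65 rose by 2.10 ± 0.15 and by 1.12 ± 0.15, and the latter size depends on background, its mean raw intensity in untreated cells at 0 h being 159. SNORD49A, from the same host as SNORD65, rose by 1.19 ± 0.14 and by 1.25 ± 0.14. SNORD87, in SNHG6, rose by 1.95 ± 0.28 in MST-312 cells and 0.87 ± 0.28 in untreated cells. Its mean raw intensity at 0 h was near background, at 161 in MST-312 cells and 123 in untreated cells, so both sizes depend on background. SNORD17, in SNX5, rose by 1.13 ± 0.24 in untreated cells (adjusted p = 0.000546) and had 0.52 ± 0.24 in MST-312 cells (adjusted p = 0.0931). The difference between these changes, -0.62 ± 0.34, did not pass (limma interaction, adjusted p = 0.223).

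Of the 5 members with no host gene, the 3 copies of U3 fell in both treatments. SNORD3A fell by 0.81 in MST-312 cells and by 0.98 in untreated cells at 24 h (SE 0.08 each, limma adjusted p = 1.33e-07 and 5.50e-09). SNORD3C fell by 1.13 and 0.94, and SNORD3D by 0.68 and 0.82. SNORD13 fell by 0.58 in MST-312 cells (adjusted p = 0.0177), a call lost without any 1 of 4 arrays (MST-312 replicate 2 or 3 at 0 h, or replicate 1 or 3 at 24 h; adjusted p = 0.0527 to 0.067). It had -0.16 in untreated cells (adjusted p = 0.52), and the difference between these changes, -0.42 ± 0.27, did not pass (limma interaction, adjusted p = 0.29). SNORD32B, on chromosome 6, was detected in 3 groups and on no untreated array at 4 or 8 h. Its change by 24 h, 0.93 in MST-312 cells and 0.22 in untreated cells, depends on background and is given without a test. For SNORD3A the untreated arrays had 10.89, 10.74 and 10.76 at 4 h, already below the 11.74, 11.98 and 11.85 of 0 h, and 10.82, 10.98 and 10.83 at 24 h.

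**Figure D4:**
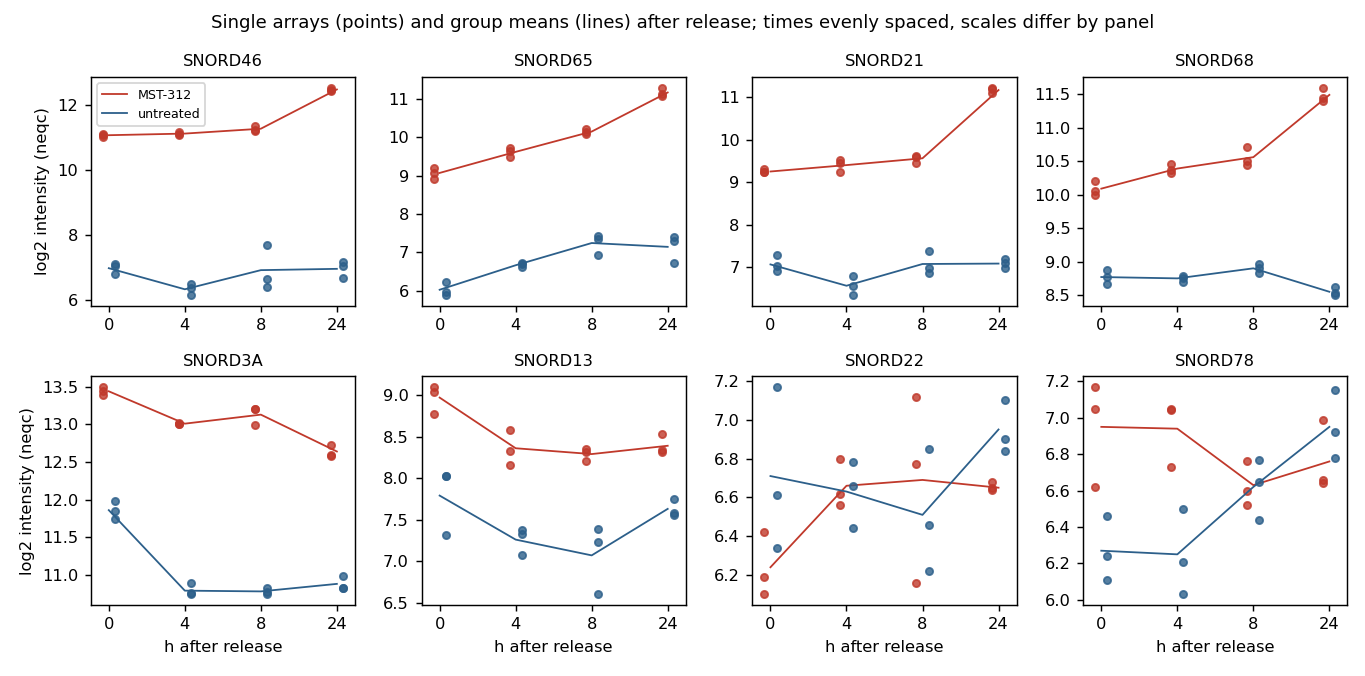
Log2 intensity (vertical axis, its range differing between panels) of 8 SNORD probes on single arrays (points) and as group means (lines) at 0, 4, 8 and 24 h after release (evenly spaced), in MST-312 cells (red) and untreated cells (blue), 3 arrays each. SNORD21 and SNORD68 rise in red at 24 h (11.22, 11.19 and 11.08 for SNORD21) while blue does not, SNORD3A declines in both, and for SNORD22 (red at 6.64, 6.65 and 6.68 at 24 h) and SNORD78 red and blue lie close together late in the course.

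An interaction term tested whether change since 0 h differed between MST-312 and untreated cells. At 4 h, 6 of the 51 probes detected throughout had a positive interaction and 2 a negative one, and at 8 h 4 and 3 did, where 9.17% and 8.13% of the 11396 were positive and 9.86% and 9.14% negative. Over all members 7 and 6 were positive and 2 and 3 negative (8.04% and 7.44% of all tested probes positive, 8.24% and 7.38% negative). The members' shares were thus 6.93% and 5.94% positive and 1.98% and 2.97% negative. With median scaling 3 and 3 members were positive and 2 and 4 negative at 4 and 8 h. With 1 array left out the negative members numbered 0 to 2 at 4 h and 1 to 4 at 8 h, the 1 being without MST-312 replicate 3 at 0 h. At 24 h, 21 of the 51 were positive and 1 negative, where 12.1% were positive and 14.5% negative, and the median was 0.51. By role, 6 of 10 guides to 18S rRNA, 11 of 20 to 28S rRNA and 4 of 13 others were positive, and 0 of 8 processing snoRNAs. Over all members 47 were positive and 1 negative (11% and 12% of all tested probes), a count that the detection rule partly fixes, since 34 members entered through MST-312 groups only. SNORD21 was the largest, at 1.89 ± 0.19 (SE, limma adjusted p = 4.04e-07): it rose by 1.91 ± 0.13 in MST-312 cells, and its change in untreated cells was 0.02 ± 0.13. SNORD68 had 1.62 ± 0.12 (adjusted p = 1.39e-08). It had 9.99, 10.06 and 10.21 in MST-312 cells at 0 h and 11.45, 11.60 and 11.40 at 24 h, against 8.67, 8.88 and 8.77 at 0 h and 8.50, 8.53 and 8.62 at 24 h in untreated cells.

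The SNORD78 interaction at 24 h was the negative one, at -0.86 ± 0.23 (SE, limma adjusted p = 0.00835). SNORD78 rose by 0.68 ± 0.16 in untreated cells, where MST-312 cells had -0.18 ± 0.16. SNORD10 was positive at 4, 8 and 24 h, with 1.08, 0.72 and 1.28, and it fell by 1.33, 0.75 and 0.96 in untreated cells.

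The proteins of the box C/D particle and its assembly factors moved in both directions. Of their 23 probes, 7, 6, 3 and 4 were higher in MST-312 cells at 0, 4, 8 and 24 h and 8, 11, 13 and 12 lower, where 26%, 24.9%, 23.6% and 26.4% of all tested probes were higher and 25.9%, 27.2%, 26.7% and 27.6% lower. FBL, the methyltransferase fibrillarin, had 0.17, 0.17, -0.23 and -0.44 (SE 0.10 each), and only the last passed (limma adjusted p = 0.00138). NOP58, a core protein, was higher by 0.89 ± 0.11 at 0 h and 0.48 ± 0.11 at 24 h. RRP9, which binds U3, was at -0.80, -0.50, -1.09 and -1.01, and all but the value at 4 h passed. It was detected in 7 of the 8 groups, and its MST-312 mean at 0 h, 5.58, was near background.

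Among the assembly factors, RUVBL1, an ATPase, had 2 probes detected in all 8 groups, at -1.08 and -0.92 at 0 h and -1.38 and -1.48 at 24 h, all passing. The remaining RUVBL1 probe, detected in 2 groups, had 0.03 and 0.80, so the probes disagree. RPAP3, a co-chaperone, was at -1.09, -1.08, -1.17 and -0.91 (SE 0.09 each), all passing. PIH1D1 was at -0.85, -0.71, -0.82 and -0.99 and RUVBL2 at -0.62, -0.44, -0.84 and -0.79, all passing. ZNHIT3, NUFIP1 and ZNHIT6 also serve assembly. The 2 ZNHIT3 probes disagreed, at -0.81 and 0.19 at 0 h, while NUFIP1 had 0.71, which passed, and 0.32, which did not (limma adjusted p = 0.145). These NUFIP1 probes, detected in 7 and 6 groups, had untreated means of 5.65 and 5.64 at 0 h, near background. The 2 ZNHIT6 probes were higher at 0 h, by 0.30 and 0.26. The one at 0.26 was lower at 4, 8 and 24 h, with -0.32, -0.20 and -0.19, and the other passed at none of these, with -0.16, -0.16 and -0.01. NOLC1, a chaperone of snoRNPs, was at 0.64 at 0 h and -0.07 at 24 h, and NOPCHAP1 at -0.17 and -0.60. The 3 probes of SNU13, which binds the snoRNA first, disagreed at 24 h, with 0.74, 0.03 and -0.54.

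After release most probes of the particle proteins were higher than at 0 h. Of 23 probes, 16, 18 and 20 were higher in MST-312 cells at 4, 8 and 24 h (14.9%, 15.9% and 21.5% of all tested probes) and 17, 18 and 18 in untreated cells (18.8%, 21.8% and 26.6%), while 0, 0 and 1 were lower in each treatment. The lower one was a ZNHIT3 probe, at -0.24 in MST-312 cells and -0.20 in untreated cells. RPAP3, at 0.17 and -0.01, and PIH1D1, at -0.15 and 0.00, did not pass in MST-312 or untreated cells at 24 h. FBL rose by 0.68 ± 0.10 in MST-312 cells and by 1.28 ± 0.10 in untreated cells at 24 h. The 2 MYC probes rose by 1.31 ± 0.10 and 1.38 ± 0.09 in MST-312 cells, and by 0.70 ± 0.10 and 1.05 ± 0.09 in untreated cells at 24 h. Between the treatments the MYC probes had -0.23 and -0.09 at 0 h, which did not pass, and 0.38 and 0.24 at 24 h, which did (limma adjusted p = 0.00473 and 0.0306). Neither of 2 TERT probes was detected on any array.

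Other short RNAs were set beside the SNORDs. Of 54 detected box H/ACA probes (SNORA, which guide pseudouridylation), 19, 19, 13 and 34 were higher in MST-312 cells at 0, 4, 8 and 24 h and 7, 4, 6 and 3 lower, with medians of 0.25, 0.19, 0.03 and 0.62. Of all tested probes, 26%, 24.9%, 23.6% and 26.4% were higher and 25.9%, 27.2%, 26.7% and 27.6% lower. The SNORA share of higher probes at 8 h, 24.1%, was thus near that of all probes. Of 13 Cajal body probes (SCARNA), 9, 9, 9 and 10 were higher and 0, 1, 1 and 0 lower. Of 16 probes for spliceosomal RNAs, 7SK, RMRP and RNase P RNA, 15, 16, 15 and 14 were higher and 0 lower, with medians of 1.36, 1.76, 1.64 and 1.19. After release 13, 9 and 9 of these 16 fell at 4, 8 and 24 h in MST-312 cells, and 16, 14 and 8 in untreated cells, and 0 rose. Of all tested probes, 14.2%, 17.1% and 21.7% fell and 14.9%, 15.9% and 21.5% rose in MST-312 cells. In untreated cells 17.4%, 21.1% and 25.6% of them fell and 18.8%, 21.8% and 26.6% rose. These counts are over all qualifying probes, not only those detected throughout. Any probe that qualified through MST-312 groups alone had to be brighter there, so the counts are given as a description. Whether SNORD changes differ from those of these RNAs was not tested.

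On each array 34.3% to 38% of probes were detected, and the mean raw intensity of an array was 543 to 679 in MST-312 cells and 527 to 764 in untreated cells. Of 9 B cell markers with a probe, 8 were detected on all 24 arrays and PAX5 on 0. Their summed raw intensity was 48700 to 83300 on MST-312 arrays and 70600 to 128000 on untreated arrays. Single markers went both ways in mean raw intensity, MST-312 against untreated. CD74 (11200 against 29400), HLA-DRA (19300 against 33500), BLK (684 against 1310) and CD22 (310 against 369) were lower. MS4A1 (5610 against 2530), CD79B (18200 against 17300) and EBF1 (542 against 504) were higher, and CD79A had 12900 in each. Of 6 T cell markers none was on all 24 arrays, CD3E and CD4 were on 0, and the sums were 627 to 819 on MST-312 arrays and 702 to 918 on untreated arrays. Of 6 monocyte and macrophage markers, CD14 and CD68 were on all 24, with sums of 1980 to 2640 on MST-312 arrays and 1900 to 4690 on untreated arrays. Of 6 epithelial and fibroblast markers EPCAM alone was on all 24, and the sums were 1010 to 2130 on MST-312 arrays and 776 to 1460 on untreated arrays. The part of these markers in the SNORD results was not tested.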

How the data were processed

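Total RNA from 24 samples (8 groups of 3) was extracted with Trizol and RNeasy columns, labelled with a MessageAmp kit and hybridised to Illumina arrays, per the labels' protocols. The deposited raw table gives every array's intensity per probe with its detection p-value, per the file headers. The authors' processed intensity was deposited as well, by a method that no source used here states. Its values ranked probes as the raw ones did (rank correlation 1) with medians of 138.28 to 138.37, and it served as an alternative.

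The neqc function (limma 3.58.1, R 4.3.3) inferred the background of raw intensities through the detection p-values, added an offset of 16, applied quantile normalization and took log2. The values deposited by the authors were not log2 values. A single limma fit estimated 8 group means for each of the 17882 detected probes (16 residual degrees of freedom), with p-values two-sided and adjusted by Benjamini-Hochberg over all probes of a comparison. An adjusted p below 0.05 was called. Precision is limited by the number of arrays, 3 in each group. Probes were named through the platform annotation, which gave 1 symbol to 30113 probes, several to 8 and none to 17201.

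Host genes were taken from a fixed list and from RefSeq gene spans that contain the snoRNA. The table used holds no strand, so strand was not checked, though 111 of 111 listed hosts matched the span. No SNORD sequences were at hand, and none is shown. One host gene is not reported here. Named members were the largest changes in each comparison, all processing snoRNAs and U6 guides, their hosts and the particle proteins, plus exceptions and same-host members picked after their values were seen (among them SNORD36A, SNORD31, SNORD1A, SNORD74, SNORD76, SNORD27, SNORD30 and SNORD32B). Members and lists were chosen with earlier results of these data known. Chips are not identified in the sources used, and their effect was not analysed here.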

Additional observations from a re-analysis of the deposited data

Results flagged for a closer look

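These results are listed because the treatments differed in their change since 0 h, by limma's interaction test over all probes. At 4 h, 7 SNORD probes had a positive and 2 a negative interaction (8.04% and 8.24% of all tested probes), and at 8 h 6 were positive and 3 negative (7.44% and 7.38%). At 24 h, 47 were positive and 1 negative (11% and 12%), with a median of 0.64 on the log2 scale. That count includes 34 probes that qualified through MST-312 groups only, some of them at 24 h alone, and so is a description. Of the 51 probes detected throughout, 21 were positive and 1 negative, with a median of 0.51. The single values with the largest size at 24 h were 1.89 for SNORD21, 1.62 for SNORD68, 1.55 for SNORD59B and 1.46 for SNORD105, and -0.86 for SNORD78. SNORD59B was detected on no untreated array at 8 or 24 h, nor SNORD105 at 0, 4 or 8 h, and SNORD105 qualified through MST-312 groups only. The values of both therefore depend on how background was treated and are given as a description. SNORD59B had 8.02, 8.45 and 8.46 in MST-312 cells at 24 h and 5.47, 5.48 and 5.52 in untreated cells. SNORD105 had 9.03, 9.12 and 9.17 in MST-312 cells at 24 h and 5.88, 5.25 and 5.07 in untreated cells.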

How the results depend on the processing

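Counts of changed SNORD probes stayed within 1.5 times under the alternatives tried, except for the 4 h interaction, where 5 probes changed with median scaling and 9 in the main setting. The 2 negative 4 h interactions became 0 without background correction, with cyclic loess, with the authors' values and with no detection filter, and 1 with an offset of 50 or with a trended, robust eBayes fit. Leaving out 1 array at a time gave 88 to 93, 90 to 95, 86 to 91 and 95 to 97 changed probes for MST-312 against untreated at 0, 4, 8 and 24 h, and 39 to 50 for the 24 h interaction. Of the single-probe values under all alternatives, 1739 kept their call or lack of a call. A further 3 gained the call (SNORD22 at 0 h) and 5 lost it (SNORD13 in MST-312 cells, 24 h against 0 h). Of values called in either setting, 0 reversed direction. Values called in neither could change sign, as SNORD10 did at 0 h (-0.06 in the main setting, -0.11 to 0.01 with 1 array left out). Median scaling shifted the median of all probes by -0.10, -0.21, -0.19 and -0.12 at 0, 4, 8 and 24 h, and the share of higher among called probes became 37.8%, 26.7%, 27.3% and 36.1%, against 50.1%, 47.8%, 47% and 48.9%. For 24 h against 0 h in MST-312 cells that share became 61.6%, against 49.8%, and in untreated cells at 4, 8 and 24 h 62.4%, 62.9% and 61.9%, against 52%, 50.8% and 51%. For the interaction at 4 and 8 h it became 30.8% and 35.3%, against 49.4% and 50.2%. SNORD probes were then 89, 89, 87 and 96 higher and 1, 0, 0 and 0 lower, the 1 being SNORD22 at -0.54 (adjusted p = 0.0305), and SNORD13 gave -0.45 (adjusted p = 0.0951). In that setting the MST-312 release counts were 1 and 9 higher at 4 and 8 h, against 6 and 16. The authors' processed values gave SNORD medians of 0.76, 0.76, 0.78 and 1.25, against 1.32, 1.31, 1.38 and 1.90. The cause of these shifts was not tested. With the replicate number as a block, 95, 94, 92 and 97 probes changed, and SNORD22 at 0 h passed (adjusted p = 0.041). Higher calls in untreated cells at 4 h then numbered 8, against 4. Arrays with the same number correlated at -0.20 to 0.48, so not every pair reached 0.1 and the numbers, which no label ties to a shared culture or day, were not taken as pairs. Still, 21 of 24 arrays correlated best with their own number, a hint from the data of an effect shared by number. Signal over background limits the 77 probes that did not qualify.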
